A study of Mus musculus with 107 samples.

Results

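Ngp (neutrophilic granule protein), Camp (the cathelicidin antimicrobial peptide), S100a8 and S100a9 are 4 genes of the neutrophil, chosen by symbol out of 12315 genes measured in mouse liver. Each was measured by exactly 1 probe, and each probe had a value on all 104 arrays used. The livers came from female F2 mice, the grandchildren of C57BL/6J and DBA/2J parents, and every mouse ate an atherogenic diet, so diet and sex were shared by the whole group. No treated or control group, genotype, age or day of collection was given for single mice, and the question the design allows is how the genes differed and moved together from mouse to mouse. Each liver was hybridised once on a 2-colour array against a pool that the labels describe as made from equal RNA portions of the mice, so a value is a log2 ratio of mouse to pool and not a level.

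Neutrophils are short-lived white blood cells that are made in the bone marrow and enter the liver with the blood. Their granules are filled in a fixed order as they mature: primary granules with Mpo and proteases such as Ctsg and Elane, then secondary granules with Ltf, Ngp and Camp. S100a8 and S100a9 bind each other to form calprotectin, a protein that holds metal ions away from microbes and fills the cytosol of neutrophils. Monocytes carry calprotectin as well, whereas Ngp and Camp messages are found mainly in maturing neutrophils of the marrow. In a bulk liver sample, fewer cells of a type and less RNA per cell cannot be told apart.

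The promoters of the 4 genes are shown because the genes move together and because the granule genes and the calprotectin genes sit at 2 separate places in the genome. Each sequence is the 250 bases before the transcription start in the RefSeq table for GRCm38.p6, read 5′ to 3′ on the strand of the gene, and all 4 genes matched by symbol. The windows are chr9:110419558-110419807 on the plus strand for Ngp, chr9:109849457-109849706 on the minus strand for Camp, chr3:90668821-90669070 on the plus strand for S100a8 and chr3:90695722-90695971 on the minus strand for S100a9. Capitals mark matches on either strand to 3 motifs: the C/EBP core TTNNGNAA, the PU.1 core GAGGAA and the TATA box TATAAA. C/EBP factors and PU.1 are regulators of myeloid genes, and the TATA box is a core promoter element.

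Ngp: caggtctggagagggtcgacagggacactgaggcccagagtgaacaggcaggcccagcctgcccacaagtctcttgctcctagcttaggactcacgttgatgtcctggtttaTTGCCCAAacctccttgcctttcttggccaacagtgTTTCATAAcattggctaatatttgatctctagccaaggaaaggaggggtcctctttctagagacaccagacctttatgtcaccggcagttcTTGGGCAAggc
Camp: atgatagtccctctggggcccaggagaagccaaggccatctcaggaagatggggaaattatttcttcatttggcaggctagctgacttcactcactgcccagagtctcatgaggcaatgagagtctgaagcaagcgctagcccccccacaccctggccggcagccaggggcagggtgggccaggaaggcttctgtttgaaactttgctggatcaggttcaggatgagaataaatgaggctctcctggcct
S100a8: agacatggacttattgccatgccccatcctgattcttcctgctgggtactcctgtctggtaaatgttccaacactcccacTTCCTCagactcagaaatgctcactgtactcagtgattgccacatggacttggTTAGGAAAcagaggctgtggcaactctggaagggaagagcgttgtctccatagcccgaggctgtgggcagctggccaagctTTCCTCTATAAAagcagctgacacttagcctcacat
S100a9: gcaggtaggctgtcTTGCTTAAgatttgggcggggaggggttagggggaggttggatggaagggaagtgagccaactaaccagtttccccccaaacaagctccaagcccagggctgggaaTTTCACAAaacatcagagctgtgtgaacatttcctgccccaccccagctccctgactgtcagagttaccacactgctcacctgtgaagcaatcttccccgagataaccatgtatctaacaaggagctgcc

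The C/EBP core occurred 3 times before Ngp, at 138, 102 and 11 bases before the start, once before S100a8, at 117 bases, and at 236 and 130 bases before S100a9. These letters were not in the Camp window. Of 32851 promoter windows of this length, 36.9% held the C/EBP core, 23.2% the PU.1 core and 12.4% the TATA box. The PU.1 core was in the S100a8 window alone of the 4, at 170 and 36 bases before the start, as was the TATA box, at 30 bases, directly after the second PU.1 match and with no overlap between motifs. A match describes the letters only.

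Across the series, the median log2 ratio of an array was between -0.09 and 0.07. On 18 arrays, of mice numbered between 59 and 107, 946 to 1828 values sat at the ends of the scale, against at most 496 on any of the other 86. They are called limit-rich arrays here, and results that rest on them are given with and without them. No dye was named, so mouse over pool, the order in the sample titles, is the likely direction but is not settled. Of 5356 pairs of arrays, 7 correlated below -0.3 (lowest -0.463), which cannot show a direction shared by all arrays. Single turned arrays would change the correlations between genes, and this was not tested. With all signs turned, high and low mice would change places and the correlations would stay as they are. A pool of equal portions would put the average unlogged ratio of a gene near the pool. Read as log10 of mouse over pool, that average was 0.789 for Ngp, 0.944 for Camp, 1.003 for S100a8 and 1.043 for S100a9. As natural logs it was 0.693, 0.855, 0.866 and 0.890 in the same order. These averages with all signs turned were not tested. Values are read as log10 before conversion, which also is not stated. If they were natural logs, each log2 value and SD below would be smaller by the same factor, and ranks and correlations would not change. Because the values are ratios, the liver identity of the samples could not be checked from the level of hepatocyte genes.

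All 4 genes lay below the pool in most mice, Ngp far below it, and far above it in a few. Ngp ranged over mice from a lowest log2 ratio of -5.77 through a median of -2.31 to a highest of 3.39 (n = 104). S100a8 had a lowest value of -4.78, a median of -0.87 and a highest of 3.04. S100a9 lay close to S100a8, with a lowest value of -3.64, a median of -0.75 and a highest of 3.08. Camp had the narrowest low end, with a lowest value of -2.54, a median of -1.05 and a highest of 3.67. Ngp was above the pool in 18 mice, Camp in 19, S100a8 in 25 and S100a9 in 24. More than 4-fold above the pool were 7 mice for Ngp, 4 for Camp, 5 for S100a8 and 5 for S100a9. More than 4-fold below the pool the genes differed most, with 59 mice for Ngp, 3 for Camp, 18 for S100a8 and 14 for S100a9.

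Few genes on the array varied as much. The 5th and 95th percentile mice were 64.8-fold apart for Ngp, 38.5-fold for S100a8, 25.0-fold for S100a9 and 9.60-fold for Camp, against a median of 1.94-fold over all 12315 genes. The SD over mice was 1.81 ± 0.144 log2 units for Ngp (± jackknife SE over 104 mice), rank 7 of all genes. It was 1.47 ± 0.114 for S100a8 (rank 31), 1.35 ± 0.106 for S100a9 (rank 59) and 1.15 ± 0.121 for Camp (rank 164), where the median gene had 0.335. The SD of Ngp was larger than that of Camp by more than the errors of both. Without the limit-rich arrays the ranges narrowed to 28.0-fold for Ngp, 20.7-fold for S100a8, 19.2-fold for S100a9 and 8.81-fold for Camp. On the limit-rich arrays alone the SD was 2.63 for Ngp, 2.00 for S100a8, 1.70 for S100a9 and 1.54 for Camp. No array was repeated, so array noise is part of every SD. The distributions of the log2 ratios had their longer tail on the high side, which would be the low side with all signs turned, with a skewness of 1.53 for Camp, 0.878 for Ngp, 0.631 for S100a9 and 0.337 for S100a8.

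The highest livers were largely the same for all 4 genes. Mouse 107 was the highest for each, with log2 ratios of 3.39 for Ngp, 3.67 for Camp, 3.04 for S100a8 and 3.08 for S100a9. Mouse 20 followed for Ngp with 3.16, and had 2.82 for Camp, 2.83 for S100a8 and 2.86 for S100a9. Mouse 78 had 2.52, 2.66, 2.13 and 2.50 for the genes in that order. In these 3 livers all 4 genes stood more than 4-fold above the pool. Mouse 138 had high calprotectin ratios of 2.95 for S100a8 and 2.78 for S100a9, beside 2.43 for Ngp and only 1.27 for Camp. Mouse 26 had 2.31 for Ngp and 1.37 for Camp, and mouse 71 had 2.09 and 2.03. Of the 6 mice highest for Ngp, 5 were among the 6 highest for Camp, 5 for S100a8 and 5 for S100a9, and 4 were among the 6 highest for all 4 genes. Mice 107 and 71 were measured on limit-rich arrays.

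The low end was less shared. The lowest Ngp values were -5.77 in mouse 87, -4.79 in mouse 63, -4.74 in mouse 95, -4.40 in mouse 36, -4.30 in mouse 62 and -3.95 in mouse 104. In these livers Camp lay between -2.54 and -1.0, near its own median of -1.05 in all but mouse 36. S100a8 had -4.78, -2.52, -1.37, -3.36, -2.35 and -1.95 in the same order of mice, so it was below its median of -0.87 in all 6 and nearest to it in mouse 95. Of the 6 mice lowest for Ngp, 1 was among the 6 lowest for Camp, 2 for S100a8 and 2 for S100a9, while S100a8 and S100a9 shared 5 of their 6 lowest. All but mouse 36 of these 6 were on limit-rich arrays, and the part of those arrays in the low Ngp values was not tested.

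**Figure D1:**
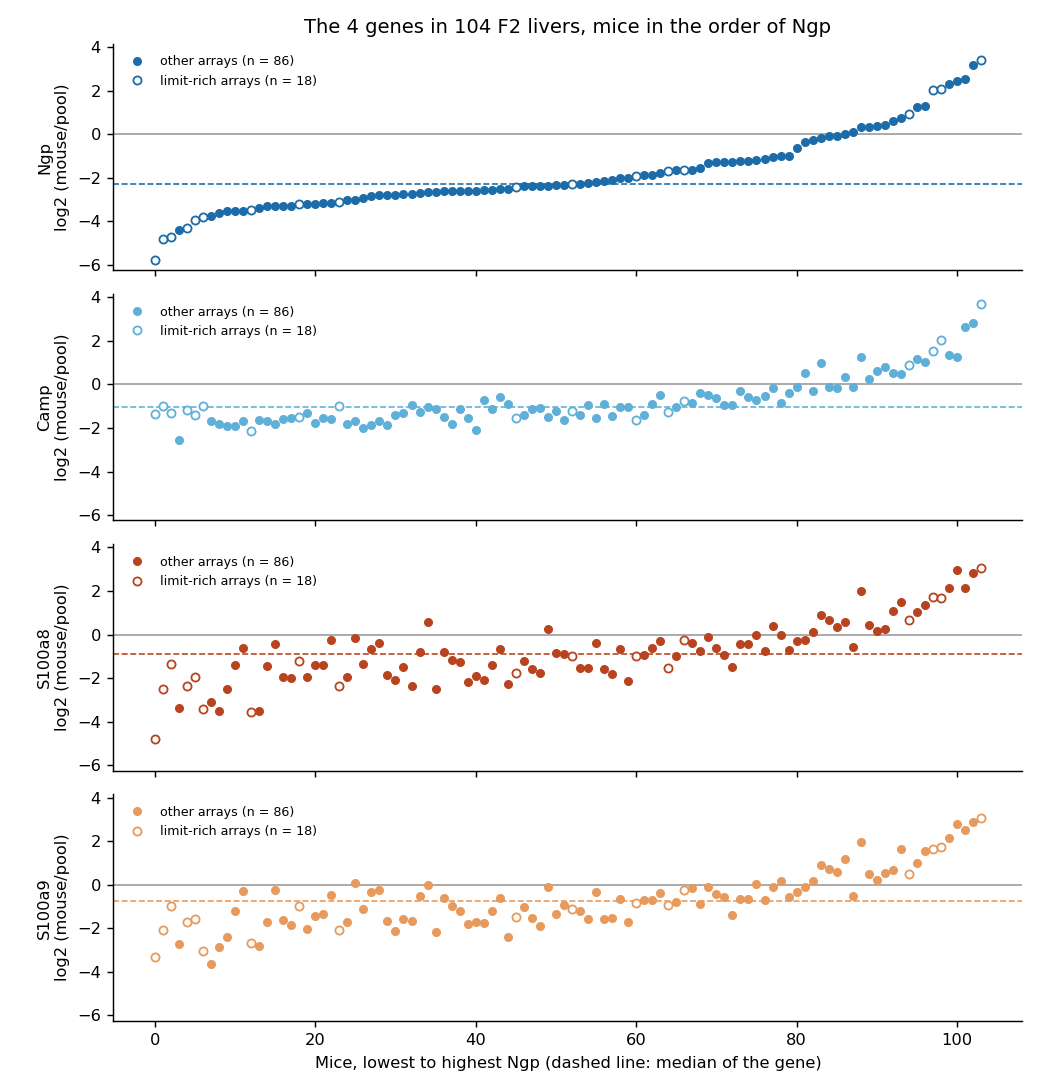
The log2 ratio of mouse to pool (vertical axis) of Ngp, Camp, S100a8 and S100a9 in 104 mice, in the order of Ngp in each panel (horizontal axis). Open points are the 18 limit-rich arrays, the dashed line is the median of the gene, and the right-hand mice are high for all 4 genes, while Camp runs flat on the left where Ngp falls to -5.77.

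S100a8 and S100a9 were nearly interchangeable as measures of a liver. Over 104 mice their Pearson r was 0.981 and Spearman's rho 0.984 (two-sided permutation p = 1e-05 for each, the smallest that 100000 permutations give). The correlation was 0.982 without the 2 mice farthest from the S100a8 median, 0.982 over the other 86 arrays and 0.989 within the 18 limit-rich arrays. The difference S100a8 minus S100a9 had an SD of 0.298 ± 0.036 log2 units (± jackknife SE), below the SD of the median gene, and ranged from -1.48 to 0.59. S100a9 changed by 0.903 log2 units for each unit of S100a8.

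Ngp and Camp moved together less tightly. Their r was 0.909 and rho 0.845 (permutation p = 1e-05 for each), with r of 0.894 without the 2 mice farthest from the Ngp median. Over the other 86 arrays r was 0.947. Within the limit-rich arrays r was 0.876 and rho 0.538. The difference Ngp minus Camp had an SD of 0.903 ± 0.092 log2 units, larger than that of the calprotectin genes by more than both errors, and ran from -4.43 to 1.17. Its SD was 0.686 without the limit-rich arrays. As a single slope over all mice, Camp changed by only 0.576 log2 units for each unit of Ngp. In the plot of the genes by mouse, Camp ran flat on the left side.

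Between the granule genes and the calprotectin genes the correlations were lower again. Ngp and S100a8 had r = 0.874 and rho = 0.790, and Ngp and S100a9 had r = 0.877 and rho = 0.784. Camp and S100a8 had r = 0.800 and rho = 0.671, and Camp and S100a9 had r = 0.821 and rho = 0.663. Permutation p was 1e-05 for all 6 pairs of the 4 genes, in r and in rho. Without the 2 mice farthest from the median of the granule gene, the 4 mixed correlations were 0.854, 0.856, 0.768 and 0.788 in the order given. They were 0.847, 0.860, 0.805 and 0.812 over the other 86 arrays and 0.927, 0.929, 0.850 and 0.883 within the limit-rich arrays. The order therefore did not hold within the limit-rich arrays, where Ngp and Camp had r = 0.876. There rho was 0.849 for Ngp and S100a8 and 0.538 for Ngp and Camp. Over all mice the difference Ngp minus S100a8 had an SD of 0.885 ± 0.062 log2 units, about that of Ngp minus Camp (0.903 ± 0.092). In the limma scans over all genes the adjusted p was 1.28e-71 for S100a9 with S100a8, 3.40e-37 for Camp with Ngp, 7.17e-31 for S100a8 with Ngp and 1.53e-21 for S100a8 with Camp.

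**Figure D2:**
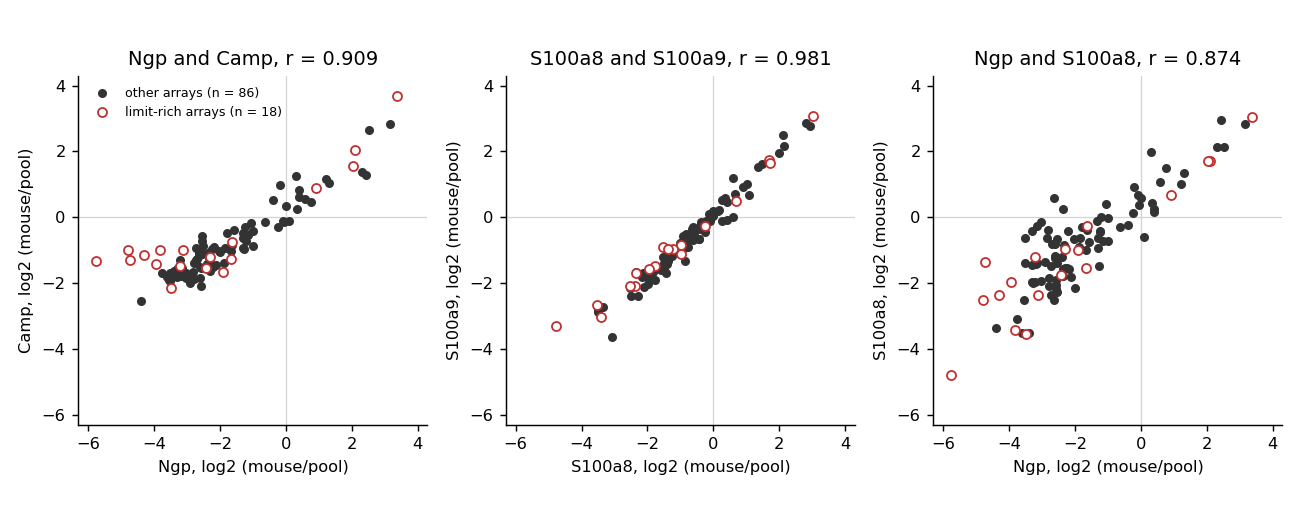
Log2 ratios of mouse to pool, 1 point per mouse (n = 104), for Ngp and Camp, for S100a8 and S100a9, and for Ngp and S100a8, with open points for the 18 limit-rich arrays. S100a8 and S100a9 lie along a line (r = 0.981), Camp levels off at low Ngp (r = 0.909), and Ngp and S100a8 scatter widely at the low end (r = 0.874).

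The 4 genes also followed the first principal component of these arrays. It was computed without scaling and with the 4 genes included, so genes of wide spread, these among them, weighed more in it. The first principal component over all genes held 19.5% of the variance, and its r was 0.690 with Ngp, 0.622 with Camp, 0.727 with S100a8 and 0.707 with S100a9 (permutation p = 1e-05 for each). The SD of an array over its probes had r of 0.042 with Ngp, 0.007 with S100a8 and 0.029 with S100a9, and 0.220 with Camp (permutation p = 0.673, 0.946, 0.769 and 0.0245). Each gene of the array was then fitted in limma on each of the 4 genes, with adjusted p under 0.05 as the call over 12314 genes. Higher with Ngp were 21.3% of genes and lower 26.4%, and 20.8% were higher and 26.9% lower with S100a8. With Camp 19.7% were higher and 23.0% lower, and with S100a9 20.5% and 26.2%. A call is therefore common in these data, and the counts below are to be read beside these shares. With the first component as a term in the fit, calls dropped to 1.56% of genes for Ngp, 0.966% for Camp, 6.24% for S100a8 and 4.28% for S100a9, and the members stayed correlated, with r from 0.648 (Camp and S100a8) to 0.962 (S100a8 and S100a9) after its removal.

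The secondary granule genes rose with all 4 genes. All 6 measured genes of that list were called higher with Ngp and all 6 with S100a8, with a median r of 0.760 with Ngp and 0.720 with S100a8, where the median over all genes was -0.05 with each. Cd177, a surface protein of neutrophils, had r of 0.835 with Ngp, 0.857 with Camp, 0.828 with S100a8 and 0.844 with S100a9. Ltf, the iron-binding protein lactoferrin, leaned to the granule genes, with r of 0.821 with Ngp and 0.840 with Camp against 0.700 with S100a8 and 0.730 with S100a9. Lcn2, which binds bacterial iron carriers and is also made by liver cells under inflammation, leaned the other way, with r of 0.580 with Ngp and 0.477 with Camp against 0.677 with S100a8 and 0.646 with S100a9. Mmp8, the neutrophil collagenase, had r of 0.779 with Ngp and 0.768 with S100a8. Chil3, a chitinase-like protein of myeloid cells, had 0.741 and 0.740, and Pglyrp1, which binds bacterial cell walls, had 0.470 and 0.486. Over mice Lcn2 spanned 28.9-fold between the 5th and 95th percentiles and Chil3 19.8-fold, while Cd177 spanned 2.67-fold. With the first component in the fit 4 of the 6 were still called with Ngp, where 0.658% of all genes were called higher. These were Ltf, Cd177, Mmp8 and Chil3.

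The primary granule genes were split. Mpo, the enzyme myeloperoxidase, had r of 0.716 with Ngp and 0.620 with S100a8 (limma adjusted p = 1.56e-14 and 1.01e-10). Ctsg, the protease cathepsin G, had r of 0.658 with Ngp and 0.726 with Camp, against 0.544 with S100a8 and 0.581 with S100a9. Elane (neutrophil elastase) and Fcnb (ficolin B) did not pass, with r of 0.0619 and 0.0446 with Ngp. Elane varied little between mice, with a range of 1.88-fold, and Fcnb had a range of 2.08-fold. Mpo and Ctsg kept their calls with Ngp and with S100a8 when the first component was a term.

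Of 8 measured genes of mature neutrophils, 6 were higher and 1 lower with Ngp, and the same counts held with S100a8. The median r was 0.392 with Ngp and 0.553 with S100a8. Mmp9, a gelatinase stored in late granules, had r of 0.685 with Ngp and 0.704 with S100a8. Csf3r, the receptor for the granulocyte growth factor, had 0.574 and 0.646, and Cxcr2, the chemokine receptor that guides neutrophils, had 0.353 and 0.385. The lectin receptors Clec4d and Clec4e were set apart from these, with r of 0.453 and 0.403 with Ngp and 0.634 and 0.599 with S100a8. Trem3, a myeloid activating receptor, had 0.380 and 0.507. Trem1, its relative, did not pass, with 0.0592 and 0.0281. Il1b, an inflammatory cytokine, was the gene that fell, with r of -0.357 with Ngp and -0.329 with S100a8. Without the limit-rich arrays its r was -0.238 and -0.248. Cstb, the 1 measured gene of the stefin list of protease inhibitors, had r of 0.420 with Ngp and 0.557 with S100a8, and turned sign with both once the first component was a term. Several defining genes of mature neutrophils, Ly6g, Retnlg and Fpr1 among them, were not analysed here.

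To set the granule gene against the calprotectin gene, each gene was fitted on Ngp and S100a8 together, each scaled to an SD of 1. Because the predictors share most of their variation (r = 0.874), such a fit sees only the part in which they differ. With Ngp held fixed, 6.82% of genes rose with S100a8 and 5.83% fell. With S100a8 held fixed, 1.05% rose with Ngp and 0.942% fell, which is 129 and 116 genes. Without the limit-rich arrays these became 312 and 276 genes, while for Camp at fixed S100a9 they were 8 and 21.

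Few listed genes rose with Ngp at fixed S100a8, and most of those were granule genes. Ltf rose by 0.57 ± 0.07 log2 units per SD of Ngp with S100a8 held fixed (± SE, limma adjusted p = 7.85e-08, n = 104), with a coefficient of -0.05 ± 0.07 for S100a8. Mpo had coefficients of 0.59 ± 0.11 for Ngp (adjusted p = 0.00389) and -0.02 ± 0.11 for S100a8. Ctsg had 0.32 ± 0.06 for Ngp (adjusted p = 0.00389) and -0.06 ± 0.06 for S100a8. Mmp8 and Cd177 were called for both, with 0.39 ± 0.10 and 0.23 ± 0.05 for Ngp and 0.31 ± 0.10 and 0.20 ± 0.05 for S100a8. Chil3 had 0.56 ± 0.18 for Ngp, which missed the threshold (adjusted p = 0.0738), and 0.54 ± 0.18 for S100a8 (adjusted p = 0.0341). Outside the granule lists the listed genes called higher for Ngp were Ppbp, a platelet chemokine (0.46 ± 0.12, adjusted p = 0.0267), and Mcpt8, a basophil protease (0.14 ± 0.04, adjusted p = 0.0416). Called lower for Ngp were 1 neutrophil-attracting chemokine (Cxcl2), 1 gene of the other S100 list and 1 acute phase gene. By ranks over mice 5 genes in all (0.0406%) rose with Ngp at fixed S100a8, against 129 by values.

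Macrophage and monocyte genes followed S100a8 beyond Ngp. With Ngp held fixed, 11 of 13 measured macrophage and Kupffer cell genes rose with S100a8, against 6.82% of all genes, and none was called for Ngp. By ranks over mice the count was again 11 of 13, against 9.21% of all genes, and with S100a9 and Camp in the fit in place of S100a8 and Ngp it was 12. C1qc, a subunit of complement C1q made by macrophages, had a coefficient of 0.55 ± 0.10 log2 units per SD of S100a8 (adjusted p = 2.18e-05) and -0.03 ± 0.10 for Ngp. Fcer1g, a signalling adaptor of antibody receptors, had 0.91 ± 0.14 for S100a8 and -0.18 ± 0.14 for Ngp. Of 6 monocyte genes 4 rose with S100a8, among them F13a1 (1.06 ± 0.16), a coagulation factor subunit carried by monocytes, and Plac8 (0.80 ± 0.09). With the first component as a term in the scans, 11 of 13 macrophage genes and 4 of 6 monocyte genes were called with S100a8, against 3.07% of all genes called higher. With S100a9 6 of 13 and 4 of 6 were called, against 250 of 12314 genes. With Ngp 1 of 13 and 1 of 6 were called, against 0.658% of all genes.

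Genes of other myeloid groups also rose with S100a8 at fixed Ngp. All 4 measured chemokines that attract neutrophils or other myeloid cells rose with S100a8 at fixed Ngp, in values and by ranks. Cxcl2 had coefficients of 1.06 ± 0.16 for S100a8 (adjusted p = 6.19e-07) and -0.69 ± 0.16 for Ngp (adjusted p = 0.0153), and Ccl3 had 1.02 ± 0.18 and -0.38 ± 0.18. With the first component as a term none of the 4 was called with either gene. Of 5 phagocyte oxidase genes 4 rose with S100a8 at fixed Ngp, including Cyba (0.84 ± 0.13) and Ncf4 (0.68 ± 0.10), subunits of the enzyme that makes superoxide. Of 8 mature neutrophil genes 5 rose, led by Clec4d (1.19 ± 0.18) and Clec4e (0.92 ± 0.14). Of 6 secondary granule genes 4 rose, beside the 3 called for Ngp at fixed S100a8, and Lcn2 was the one with the largest coefficient of the list (1.11 ± 0.23 for S100a8 and -0.07 ± 0.23 for Ngp). None of 4 primary granule genes did.

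**Figure D3:**
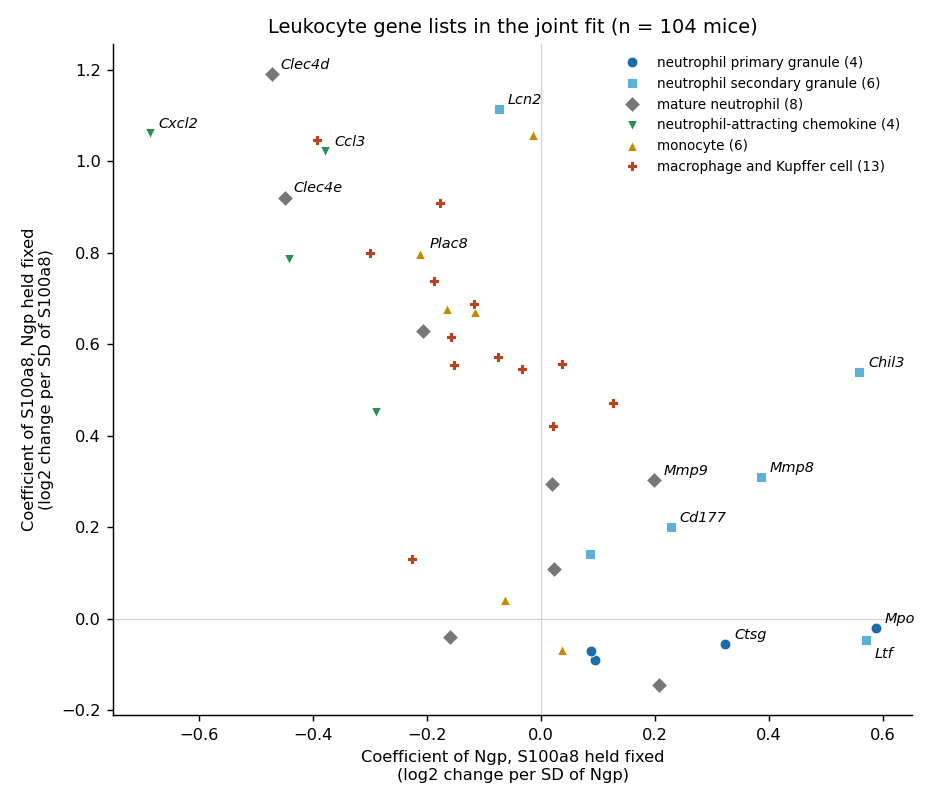
Coefficients of the joint fit for 41 genes of 6 leukocyte lists, with the change per SD of Ngp at fixed S100a8 on the horizontal axis and per SD of S100a8 at fixed Ngp on the vertical axis (log2 units, n = 104 mice). Mpo, Ctsg and Ltf lie low and to the right, macrophage and monocyte genes high near or left of the middle, and Cd177, Mmp8 and Chil3 to the right and above 0.

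The test of the difference itself, Ngp minus S100a8, called 347 genes (2.82%), of which 1.23% leaned to Ngp and 1.58% to S100a8. Camp leaned to Ngp (difference 0.98 ± 0.19, adjusted p = 0.000973) and S100a9 to S100a8 (-1.11 ± 0.10, adjusted p = 7.86e-15). Over all 104 arrays Ltf was the only gene of the neutrophil lists that leaned to Ngp (0.62 ± 0.14, adjusted p = 0.00847), and it leaned to Camp over S100a9 as well (0.40, adjusted p = 0.0347). Mpo (adjusted p = 0.112) and Ctsg (0.0687) did not pass for Ngp minus S100a8 over all arrays. For Camp minus S100a9 Ctsg did pass (0.34, adjusted p = 0.0276), and Mpo did not (adjusted p = 0.405). Without the limit-rich arrays Mpo also leaned to Ngp (0.54, adjusted p = 0.000786), Ltf kept its call, and Cxcl1 lost the call toward S100a8 given next (adjusted p = 0.0541). F13a1, 1 of the monocyte genes counted next, lost its call as well (adjusted p = 0.0620), as did Lfng (0.0571). Of 83 named genes 3 lost and 3 gained a call in this test. Leaning to S100a8 were Clec4d (-1.66 ± 0.35), Clec4e (-1.37 ± 0.26), Cstb, all 4 chemokines with Cxcl2 at -1.75 ± 0.31, 3 of 6 monocyte genes and 5 of 13 macrophage genes. The smallest p toward S100a8 with the members left out were those of Plac8, Lair1 (an inhibitory receptor of immune cells, -1.02 ± 0.18) and Hcar2 (a hydroxy-acid receptor of macrophages and neutrophils, -0.89 ± 0.16). On the other side stood genes that fell with S100a8 more than with Ngp, such as Tex261, Eea1 (an endosome protein, 0.42 ± 0.08) and Tshz1. By ranks over mice this test called only 6 genes (0.0487%), none of them a list gene or member, with an adjusted p of 0.171 for Camp, 0.0875 for S100a9 and 0.268 for Ltf. Eea1 and Hcar2 were among the 6, each with an adjusted p of 0.0473. With the members left out, 345 genes were called here and 309 with Camp and S100a9 in the fit. Of these, 119 genes were called in both fits, all with the same sign, which is 34.5% of the calls for Ngp and S100a8 and 38.5% of those for Camp and S100a9.

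The genes most like each pair overlapped in part. Likeness was the smaller of the r values with both genes of a pair over 104 mice, and the 4 members themselves were left out of the ranking. For Ngp and Camp the nearest were Cd177 (0.835), Ltf (0.821), Arhgdib (0.705), Chil3 (0.698), Mpo (0.693), Rgs14 (0.683), Mmp8 (0.679), Hmgb2 (0.678), Lrmp (0.673) and Pf4 (0.672). For S100a8 and S100a9 they were Cd177 (0.828), Arhgdib (0.827), Ptprc (0.793), Apbb1ip (0.793), Cmtm7 (0.792), Ripk3 (0.785), Lfng (0.776), Lcp2 (0.776), Plac8 (0.775) and Ppp1r18 (0.766). Cd177 and Arhgdib were the 2 genes on both. The first set holds 5 genes of the neutrophil granule lists, and the second holds 1 of them, Cd177, beside Ptprc, the CD45 protein of all white blood cells, and Lcp2, an adaptor of T cell and myeloid receptors.

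Receptors, adhesion molecules and regulators of neutrophils were measured as well. In the list of 8 genes for calprotectin receptors and their signalling, 5 were higher and 1 lower with S100a8. Tlr4, a receptor of calprotectin, had r of 0.505 with Ngp and 0.591 with S100a8, and its co-receptor Cd14 had 0.593 and 0.703. Ager, the other named receptor, fell, with r of -0.557 with Ngp and -0.615 with S100a8, and varied little between mice, with a range of 1.46-fold. Of 7 adhesion genes 5 were higher with each, led by Itgb2, the shared chain of leukocyte integrins (0.682 with Ngp and 0.790 with S100a8). Vcam1 had 0.654 and 0.732, and Selplg, a selectin ligand, 0.595 and 0.644. Among 5 granulopoiesis regulators, Cebpd (0.583 and 0.691) and Spi1, which encodes PU.1 (0.580 and 0.679), rose, and Cebpa, which hepatocytes also express, fell (-0.494 and -0.563). Rac2, the small GTPase of the phagocyte oxidase, had 0.660 and 0.708. With the first component as a term, no gene of the receptor or regulator lists was called with Ngp, and 2 of each were higher with S100a8. Of the adhesion genes 1 was then higher with Ngp and 3 with S100a8.

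Other members of the S100 family were not a block. Of 11 measured, 3 were higher and 2 lower with Ngp, and 3 higher and 1 lower with S100a8. The shares over all genes were 21.3% higher and 26.4% lower with Ngp, and 20.8% and 26.9% with S100a8. The median r was -0.08 with Ngp and 0.04 with S100a8. S100a6 (0.579 with Ngp and 0.656 with S100a8), S100a11 (0.556 and 0.623) and S100a4 (0.363 and 0.379) were the ones that rose, and with the first component as a term none of the 11 was called and S100a6 and S100a11 turned sign with Ngp. Acute phase genes are made by hepatocytes under inflammation. Of 14 measured, 4 were higher and 3 lower with Ngp, near the shares over all genes. With S100a8, 8 were higher and 2 lower. Socs3, an inhibitor of cytokine signalling, had r of 0.459 and 0.532, Cp (ceruloplasmin) 0.458 and 0.498, and Orm1 (orosomucoid) 0.331 and 0.427. Without the limit-rich arrays Orm1 had 0.237 and 0.382.

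Markers of other cells moved with the 4 genes too, where over all genes 21.3% were higher and 26.4% lower with Ngp. With S100a8 those shares were 20.8% and 26.9%. Of 13 macrophage genes 12 were higher with Ngp and 12 with S100a8, while Clec4f, a defining gene of resident Kupffer cells, did not pass, with r of -0.164 and -0.0983. Platelet genes were higher in 3 of 5 with Ngp and 4 of 5 with S100a8, with Pf4 at 0.699 and 0.740, Ppbp at 0.578 and 0.488, and Itga2b at 0.382 and 0.392. Of 13 T and NK cell genes 7 were higher and 1 lower with each. B and plasma cell genes were higher in 5 of 8, with Cd22 at 0.465 and 0.484 (0.310 and 0.375 without the limit-rich arrays). Red cell genes were higher in 3 of 6 with Ngp and 2 of 6 with S100a8, and 1 was lower with each. Genes of pancreas (6 measured) were called with neither, and of 10 skeletal muscle genes 2 were lower with each and none higher. The part of these other cells in the correlations was not tested.

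The genome around the 4 genes was read from the same mice. Ngp and Camp lie on chromosome 9 with 6 measured genes between them. Of those 6, Cdc25a, Map4, Dhx30 and Smarcc1 rose with Ngp, with r of 0.377, 0.416, 0.406 and 0.319, all of which turned sign with the first component as a term. Cspg5 fell (-0.238), with r of -0.102 without the limit-rich arrays. Ltf is the 9th measured gene after Ngp, and Ccrl2, a chemokine-binding receptor of myeloid cells (r of 0.493 with Ngp and 0.668 with S100a8), is the 10th. Over the 26 genes between and around them, 7 were higher and 4 lower with Ngp, with a median r of 0.05. S100a8 and S100a9 are adjacent on chromosome 3 in a cluster of S100 genes. Of their 20 neighbours 3 were higher with S100a8, S100a6, S100a4 and Snapin (r = 0.419), and 6 were lower, with a median r of -0.16. Set beside 21.3% higher and 26.4% lower over all genes with Ngp, and 20.8% and 26.9% with S100a8, these counts give no result about the neighbourhood. No genotypes were analysed here.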

How the data were processed

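The members, the 23 gene lists and the tests were chosen with earlier results of these data known. The authors deposited 1 log ratio per probe and array, read here as log10 because values stop at exactly -2 and +2. Not given in the sources used here: dyes, scanner and normalization. Of 107 arrays, 3 held no values and were left out. Values at the limits (1.07%) were treated as not measured, 1.69% were missing, and ratios were converted to log2. Limit-rich arrays had over 700 values at the limits. Of 23536 probes, 14744 had 1 gene symbol through the platform annotation and the GRCm38.p6 gene table. Probes with values on at least 90% of the 104 arrays were kept and averaged per gene. Of 225 list entries, 173 were measured, 13 had a probe below that filter and 39 had no named probe here.

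Genes were fitted with limma 3.58.1 in R 4.3.3, with Benjamini-Hochberg adjustment over all genes and a threshold of 0.05. Permutation tests were two-sided (scipy 1.17.1, Python 3.11.15). The replicates are separate mice, each on 1 array, so precision is limited by how many arrays there are. Named are the neutrophil list genes, up to 3 genes of each other list with the largest r, the 10 genes most like each pair, up to 8 genes in each direction of the difference test, called neighbours, and the 6 mice at each end of Ngp. Clec4f was named after the values were seen. Alternatives were limit-rich arrays left out, alone or as a batch term, limit values kept, probes on every array, ranks, the 2 farthest mice left out, the first principal component as a term, Camp and S100a9 in the joint fit, and natural logs. On simulated data with independent noise for each gene, the scan with Ngp recovered 92.0% of genes with a slope of 0.5 SD. It called 12 of 12111 unchanged genes. Shared variation between genes was not simulated, so these rates may not hold for the real data. The test of Ngp minus S100a8 recovered 0% at a slope of 0.5 SD and 90.0% at 2 SD.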

Additional observations from a re-analysis of the deposited data

How the results depend on the processing

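All 6 correlations between members kept their sign and their limma call under every alternative run. The SD of Ngp was 1.59 log2 units without the limit-rich arrays, 2.63 on them alone and 0.784 with natural logs. That of S100a8 was 1.33, 2.00 and 0.636. On the limit-rich arrays alone and with natural logs the SD was 1.54 and 0.497 for Camp and 1.70 and 0.586 for S100a9. The scans called 2057 genes for Ngp, 943 for Camp, 2039 for S100a8 and 2125 for S100a9 on the limit-rich arrays alone, which leaves 18 mice, and 192, 119, 769 and 527 with the first component as a term. Genes called for Ngp at fixed S100a8 numbered 588 without the limit-rich arrays, 8 by ranks, 119 with the first component, and 29 for Camp at fixed S100a9, against 245. For Ngp minus S100a8 they numbered 610, 6 and 703 under the first 3 of these, against 347. The cause of these moves was not tested.

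With the first component as a term, 14 named genes turned sign with Ngp: the coefficients, in log2 units per log2 unit of Ngp, were -0.0099 for Ccna2, -0.017 for Ccrl2, -0.015 for Cdc25a, 0.00033 for Cebpa, -0.053 for Cp, -0.087 for Cstb, -0.069 for Cxcl2, -0.0028 for Dhx30, -0.016 for Ifit2, -0.035 for Map4, -0.064 for S100a11, -0.038 for S100a6, -0.010 for Smarcc1 and -0.026 for Snapin. With S100a8 10 turned: 0.012 for Apoc3, -0.082 for Cdc25a, -0.064 for Cp, -0.020 for Cstb, 0.0082 for Ifit1, 0.033 for Il1b, -0.069 for Map4, -0.053 for S100a11, -0.030 for Snapin and 0.065 for Ttr. Of these Map4 with S100a8 alone passed the threshold (limma adjusted p = 0.00498). No paired analysis was possible because the mice form 1 group with 1 array each. Noise of single arrays is not known, so small differences between mice were not read.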

Other observations

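Dividing-cell genes rose with the 4 genes as a list. Of 14 measured proliferation genes 12 were called higher with Ngp and all 14 with S100a8, with a median r of 0.398 and 0.403. The shares called higher over all genes were 21.3% and 20.8%. Top2a, which untangles DNA in dividing cells, had r of 0.535 with Ngp and 0.564 with S100a8, Mki67 had 0.531 and 0.551, and Ccna2 (cyclin A2) had 0.489 and 0.544. With the first component as a term none of the 14 was called with any of the 4 genes. At fixed Ngp 2 rose with S100a8 by values and 9 by ranks.

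Interferon-induced genes were mixed. Of 10 measured, 1 was higher and 5 lower with Ngp, and 1 higher and 4 lower with S100a8, with a median r of -0.18 and -0.15. The shares over all genes were 21.3% higher and 26.4% lower with Ngp, and 20.8% and 26.9% with S100a8. Ifit1, an antiviral RNA-binding protein, had r of -0.483 with Ngp and -0.427 with S100a8. Ifit2, of the same family, rose, with r of 0.330 and 0.473. None was called lower with either gene once the first component was a term, and 2 were called higher with S100a8. Of 7 hepatocyte genes 2 fell with each gene and none rose. They were Ttr, which carries thyroid hormone (r of -0.562 with Ngp and -0.523 with S100a8), and Apoc3, an apolipoprotein (-0.530 and -0.488). Cd2, a surface protein of T and NK cells, had the largest r of its list, 0.518 with Ngp and 0.516 with S100a8.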
